A study of Mus musculus with 4 samples.

Results

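The genes described here are 35 genes of glucose use and of the response to low oxygen, read in nuclei of mouse heart with and without a myocardial infarction. They were taken by symbol from a list that was drawn up with earlier results of these data known: 24 encode glucose or lactate transporters and glycolytic enzymes, and 11 encode subunits, oxygen sensors or targets of the hypoxia-inducible factors (HIF). Every one of the 35 was present among the 33954 genes of the matrices. RNA of single nuclei from whole hearts was sequenced with a 10x Genomics 5′ kit and read as unique molecular identifiers (UMIs), which count RNA molecules. There were 4 libraries, 1 in each group: wild type at homeostasis, Q150X at homeostasis, wild type 3 days after infarction (3dpMI) and Q150X 3 days after infarction. Q150X is an allele of Vegfa with a premature stop, made with CRISPR/Cas9. The sample titles mark these animals "ho", and how many copies of the allele they carried is not spelled out for the samples. Strain, age, sham surgery and the number of hearts in a library are not given in the sources used here.

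Glycolysis splits glucose into pyruvate. Hexokinases, phosphofructokinase and pyruvate kinase catalyse its one-way steps, and lactate dehydrogenase turns pyruvate into lactate when it is not burned in mitochondria. The adult heart muscle cell lives mostly on fatty acids and takes up glucose through the insulin-dependent transporter Slc2a4. When oxygen is short, the prolyl hydroxylases Egln1 and Egln3 no longer mark HIF alpha subunits (Hif1a, Epas1) for destruction, and HIF binds short elements near genes of glycolysis and of the hypoxia response. HIF activity is set mainly through protein stability, so the RNA level of a subunit is not a readout of its activity.

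With 1 library in a group, a difference between groups cannot be told apart from a difference between libraries, and no test was possible. Values are UMIs per 1000000 UMIs of the summed class (CPM). Intervals are exact Poisson for a level and exact conditional binomial for a ratio, both 95% and for counting error only. Groups of values are given in the order wild type homeostasis, Q150X homeostasis, wild type 3dpMI, Q150X 3dpMI. A ratio was read for members with at least 50 UMIs over both libraries, here called measured, and past 1.5-fold is used as a mark of size. This minimum lets a gene pass through the library where it is high, so the counts of measured members describe them and support nothing further. The comparisons share libraries and are not independent of each other. CPM is not adjusted for gene length or intron content, so levels are compared within a gene and not between genes. Gapdh, Aldoa, Eno1, Pgam1, Ldha, Pkm, Tpi1 and Pgk1 have near-identical processed copies in the mouse genome, which makes their counts uncertain.

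After filtering, 25762 nuclei remained, 4198, 6142, 8104 and 7318 in the 4 libraries. The infarct libraries were deeper, with a median of 1990.5 and 2665.5 UMIs per nucleus against 921 and 968 at homeostasis. Their median mitochondrial share was 0.166% and 0.126% against 0.860% and 0.794%. A pair of libraries shared 38 to 97 barcodes among kept nuclei, at most 1.33% of the smaller library. The 30 clusters were named by marker lists, and a name here means that cells are like the type by its markers. Cardiomyocyte nuclei numbered 1578, 836, 1129 and 409, fibroblasts 1445, 2857, 1618 and 1623, macrophages or monocytes 74, 357, 1144 and 2213, and vascular endothelial nuclei 551, 727, 2561 and 1454. Macrophages of the wild-type homeostasis library were too few for a comparison, which was made from 100 nuclei up. Each class carried its own markers in every library: the 15 cardiomyocyte markers summed to 85662, 77698, 72281 and 67815 CPM in cardiomyocytes. The targeted gene, Vegfa, was counted in cardiomyocytes at 716, 925, 596 and 696 CPM. The counts do not show which allele an RNA came from, so Vegfa levels do not check the genotype labels.

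The HIF response element has the core ACGTG or GCGTG. It was searched on either strand (CACGT and CACGC on the other strand, where CACGTG counts for both) in the 250 bases before each start site in RefSeq promoters of build GRCm38.p6. Among the 35 members, 31 had an entry, and 29 of those held a core in at least 1 promoter. Of the 48 promoters of members, 38 held it, beside 38.6% of all 32851 promoters. Of the 21 members with a single promoter in the table, 19 held it, a share of 90.5%, beside 37.9% of the 22862 genes with a single promoter. The member list holds genes chosen as HIF targets, and the other genes were not matched to it for base composition. A match describes these letters and is neither a site nor a cause. Promoters of 4 members are printed, with the core in capitals, to set 3 members that were higher in cardiomyocytes of both infarct libraries (Slc2a1, Pfkp and Gapdh) beside 1 that was lower (Bnip3). All 4 held the core.
Slc2a1 (chr4:119108495-119108744, plus strand): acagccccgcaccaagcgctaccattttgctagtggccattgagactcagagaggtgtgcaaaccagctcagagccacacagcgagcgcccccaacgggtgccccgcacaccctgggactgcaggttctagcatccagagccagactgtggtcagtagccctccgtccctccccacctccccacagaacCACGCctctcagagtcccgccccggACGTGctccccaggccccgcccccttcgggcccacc
Pfkp (chr13:6648772-6649021, minus strand): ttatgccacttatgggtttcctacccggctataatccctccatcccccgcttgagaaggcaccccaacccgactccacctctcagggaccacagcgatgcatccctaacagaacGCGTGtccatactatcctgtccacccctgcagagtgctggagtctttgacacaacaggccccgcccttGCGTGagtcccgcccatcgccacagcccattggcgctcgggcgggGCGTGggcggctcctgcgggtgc
Gapdh (chr6:125165774-125166023, minus strand): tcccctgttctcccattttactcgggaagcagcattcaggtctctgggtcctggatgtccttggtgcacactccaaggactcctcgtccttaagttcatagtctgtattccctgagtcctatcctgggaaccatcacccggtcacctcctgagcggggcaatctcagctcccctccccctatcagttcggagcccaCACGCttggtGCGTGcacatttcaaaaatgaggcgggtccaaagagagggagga
Bnip3 (chr7:138909507-138909756, minus strand): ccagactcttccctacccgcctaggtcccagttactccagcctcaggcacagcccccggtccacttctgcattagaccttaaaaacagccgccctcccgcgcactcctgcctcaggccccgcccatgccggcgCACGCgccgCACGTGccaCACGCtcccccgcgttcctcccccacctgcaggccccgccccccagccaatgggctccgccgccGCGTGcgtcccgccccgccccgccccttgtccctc
Slc2a1 held 2 cores, at 61 and 36 bases before the start, and Gapdh 2, at 54 and 44 bases. Pfkp held 3, the nearest at 23 bases. Bnip3 held 5, of which the pair at 108 and 107 bases overlap in CACGTG.

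The members were not spread evenly over the cell classes. In the wild-type infarct library 15 of the 35 were highest in cardiomyocytes, 13 in macrophages or monocytes, 4 in endothelium and 3 in fibroblasts. The level was clear of the next class by its Poisson interval for 12, 7, 2 and 1 of them. The Q150X infarct library gave 13, 15, 4 and 3, clear for 11, 10, 3 and 2. The muscle forms were cardiomyocyte genes: Slc2a4, Pfkm, Pfkfb2, Ldhb, Hk2 and Eno3, the enolase of muscle, were highest there in both infarct libraries. Macrophages held the highest levels of Slc2a1, Pkm, Eno1, Pgam1, Tpi1, Gapdh and Pfkfb3 in both, though the Gapdh interval met that of endothelium in the wild-type library. Pfkfb3 makes fructose 2,6-bisphosphate, the main activator of phosphofructokinase. It was counted at 189.6 and 196 CPM in macrophages of the wild-type and Q150X infarct libraries, against 11.3 and 11.6 CPM in their cardiomyocytes. P4ha1, a collagen prolyl hydroxylase subunit, was highest in fibroblasts of both infarct libraries, at 252, 267, 232 and 237 CPM in the 4 libraries.

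The 2 HIF alpha subunits had different homes. Hif1a was counted in cardiomyocytes at 218, 245, 304 and 271 CPM, with less than 1.5-fold between any pair compared. In endothelium it was counted at 90.9, 78.7, 225 and 314 CPM, and both infarct libraries were clear of both homeostasis libraries. Epas1, the subunit known from endothelium, was counted there at 1395, 880.3, 1023 and 700.1 CPM. The Q150X library was the lower one at both times. Pericytes, left out of the comparisons, held Epas1 at 694, 513, 718 and 642 CPM. In cardiomyocytes Epas1 was at 79.1, 77.9, 84.6 and 48.3 CPM, where the Q150X infarct library was the low one.

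**Figure D1:**
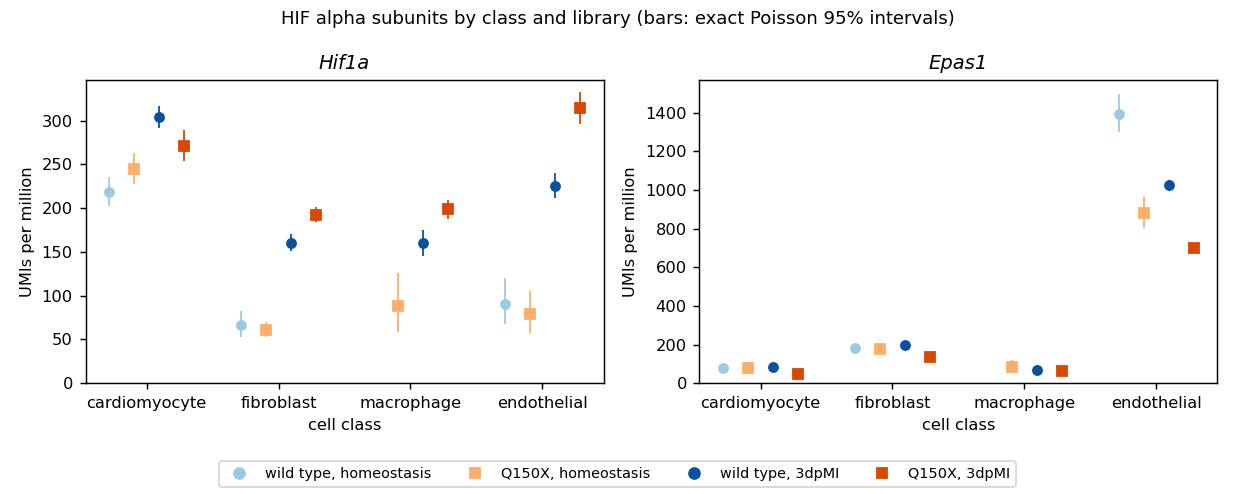
Levels of Hif1a (left) and Epas1 (right) in CPM of the class sum, by cell class (x axis) and library (colour and shape), with exact Poisson 95% intervals as bars; classes under 100 nuclei are not drawn. Epas1 stands highest in endothelium, where both Q150X libraries lie below the wild-type library of the same time, and Hif1a is higher in the infarct libraries in fibroblasts, macrophages and endothelium.

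Cardiomyocytes of the infarct libraries held more RNA of the later steps of glycolysis, of the transporter Slc2a1 and of Ndrg1, and less of Bnip3, Pfkfb2 and Hk2. In wild type, 17 of 30 measured members were at least 1.5-fold higher and 4 at least 1.5-fold lower, beside 35.4% and 4.93% of all genes measured. In Q150X, 13 of 30 were higher and 4 lower, beside 28.3% and 11.3%. The median log2 ratio was 0.75 for the 22 measured glycolysis members and -0.05 for the 8 HIF members in wild type, where the median of all genes was 0.37. In Q150X these were 0.62, -0.38 and 0.19. Slc2a3, Slc16a3, Ankrd37, Adm and Car9 stayed under 50 UMIs in cardiomyocytes in both comparisons.

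Among the transporters, Slc2a1, the glucose transporter of most dividing cells, was counted in cardiomyocytes at 3.84, 3.01, 15.2 and 32.5 CPM. In intervals, both infarct libraries were clear of both homeostasis libraries, and Q150X was the higher of the infarct pair. The infarct ratio was 3.94-fold (2.17 to 7.85) in wild type and 10.8-fold (5.49 to 24.3) in Q150X, from 12 and 9 UMIs at homeostasis. Slc2a4, the insulin-dependent transporter, was counted at 21.1, 23.4, 31.8 and 26.1 CPM, and only the wild-type infarct ratio reached 1.5-fold. The lactate exporter Slc16a3 had 0 UMIs in both homeostasis libraries, which by the floor of 3 UMIs allows up to 0.961 and 1.0 CPM, and 2.37 and 3.65 CPM after infarction.

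Of the upper steps, Pfkp, the platelet form of phosphofructokinase, was counted in cardiomyocytes at 81.7, 106, 172 and 364 CPM. It was 2.10-fold (1.84 to 2.41) higher with infarction in wild type and 3.44-fold (3.03 to 3.90) in Q150X. The muscle form Pfkm was at 80.4, 107, 129 and 108 CPM, a ratio of 1.6-fold in wild type and 1.01-fold in Q150X. Hk1, the ubiquitous hexokinase, was at 68.2, 77.9, 149 and 196 CPM, higher in both infarct libraries. The insulin-regulated Hk2 went the other way, at 229.7, 300.5, 133 and 167 CPM, with ratios of 0.577-fold (0.524 to 0.636) and 0.555-fold (0.499 to 0.618). Pfkfb2, the heart form of the enzyme that makes and breaks down fructose 2,6-bisphosphate, was at 385, 459.9, 221 and 167 CPM. Both infarct libraries lay below both homeostasis libraries, 0.575-fold (0.533 to 0.619) in wild type and 0.364-fold (0.329 to 0.402) in Q150X.

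All 6 genes of the lower steps were measured in cardiomyocytes, and each was higher with infarction in both genotypes, though Eno3 in Q150X by only 1.28-fold. Eno1, the ubiquitous enolase, was counted at 13.8, 19.7, 53.3 and 90.3 CPM, 3.87-fold (2.82 to 5.43) in wild type and 4.58-fold (3.45 to 6.16) in Q150X. Gapdh was at 14.4, 34.8, 56.0 and 104 CPM, with ratios of 3.89-fold (2.85 to 5.41) and 2.99-fold (2.39 to 3.76). Eno3 was at 20.2, 45.5, 73.6 and 58.1 CPM, 3.64-fold (2.80 to 4.81) higher in wild type. In Gapdh, Eno1, Pgk1 and Pkm the wild-type homeostasis library was the lowest of the 4 and the Q150X infarct library the highest. Of the genes of pyruvate fate, Ldha was at 25, 50.5, 38.8 and 61.7 CPM, and Ldhb, the lactate dehydrogenase subunit of heart, at 111, 143, 141 and 109 CPM. Pdk1, which holds pyruvate dehydrogenase inactive, was at 26.3, 32.1, 37.3 and 42.6 CPM.

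HIF targets did not move as one in cardiomyocytes. Ndrg1, a stress-induced gene long used as a hypoxia marker, was counted at 2.88, 3.01, 16.6 and 48.3 CPM. Both homeostasis libraries held 9 UMIs of it, and both infarct libraries were far clear of them. The ratio was 5.76-fold (2.94 to 12.9) in wild type and 16.1-fold (8.25 to 35.8) in Q150X. Bnip3, a mitophagy receptor that HIF is known to induce, was lower: 199, 220.3, 73.8 and 96.1 CPM, with ratios of 0.371-fold (0.330 to 0.417) and 0.436-fold (0.380 to 0.499). Egln3, the hydroxylase that is itself a HIF target, was at 58.6, 57.2, 20.4 and 38.3 CPM, 0.348-fold (0.280 to 0.434) in wild type and 0.670-fold (0.528 to 0.848) in Q150X. Its level in the Q150X infarct library lay between the others. P4ha2, also a collagen hydroxylase subunit, was at 31.7, 54.8, 74.5 and 101 CPM, 2.35-fold in wild type and 1.85-fold in Q150X. Epas1 was 0.621-fold (0.504 to 0.763) in Q150X.

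**Figure D2:**
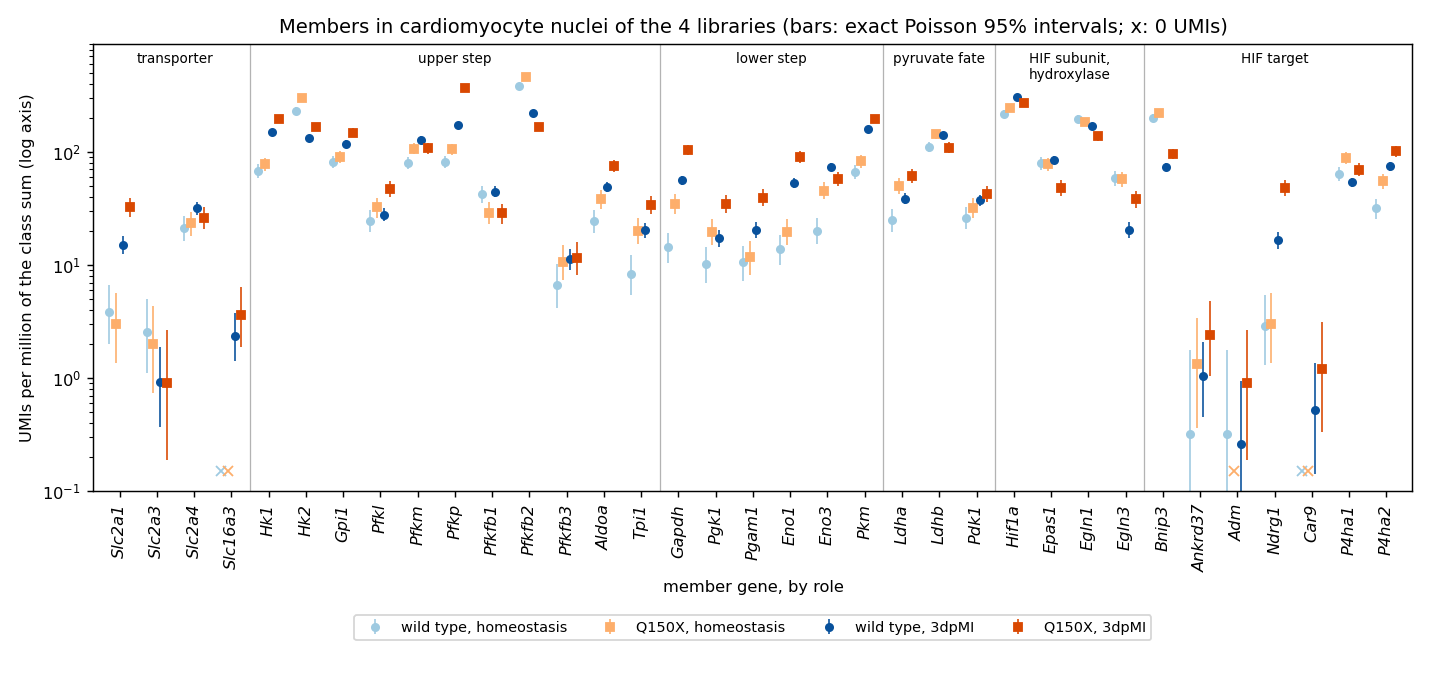
Level of each of the 35 members in cardiomyocyte nuclei (log y axis, CPM of the class sum), ordered by role along the x axis, with 1 point per library and exact Poisson 95% intervals; crosses stand for 0 UMIs. Slc2a1, Ndrg1, Eno1 and Gapdh lie higher in both infarct libraries, and Pfkfb2, Hk2 and Bnip3 lower.

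The cardiomyocytes of the infarct libraries were largely other clusters than those at homeostasis, and no cluster held 100 nuclei of both times in a genotype, so no infarct ratio could be had within one cluster. Cluster 2 held 1552 and 751 nuclei of the homeostasis libraries but 54 and 5 of the infarct libraries. Cluster 12 held 703 nuclei of wild type 3dpMI and 126 of Q150X 3dpMI. Cluster 15, led by Xirp2 and Ankrd1, genes known from stretched and stressed heart muscle, held 359 and 245, which is 31.8% and 59.9% of the cardiomyocytes of each library. Cluster 27, led by Nppa, Xirp2 and Des, held 13 nuclei of wild type 3dpMI and 33 of Q150X 3dpMI, or 1.15% and 8.07%. Its median nucleus held 1120 UMIs. Depth of the class moved with the libraries: its median was 1511.5, 3025, 6154 and 7369 UMIs per nucleus. Macrophage markers summed to 74.7, 86.6, 147 and 264 CPM in cardiomyocytes and erythroid markers to 416, 807, 16.7 and 21.9 CPM. The part of depth, of these markers and of the mitochondrial share in the ratios was not tested.

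The members were split between clusters 12 and 15. These clusters were built from all variable genes, so the following are descriptions. Ndrg1 was at 8.71 CPM in cluster 12 and 33.6 in cluster 15 of wild type, and 18.7 and 60.2 in Q150X. Slc2a1 stood at 10.3 and 25.6 CPM in wild type and 15.4 and 39.1 in Q150X. Pfkp stood at 98.3 and 338 CPM in wild type and 152 and 453 in Q150X. The 3 genes were higher in cluster 15 than in cluster 12 in both genotypes. Ldhb, Pfkfb2, Epas1, Eno3 and Pfkm ran the other way, with Pfkfb2 at 264 and 123 CPM in wild type and 270.0 and 129 in Q150X. In wild type, 8 of 30 measured members were at least 1.5-fold higher in cluster 15 than in cluster 12 and 9 lower, beside 14.7% and 12.9% of all genes. In Q150X it was 8 and 8 of 29, beside 17.7% and 13.2%.

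**Figure D3:**
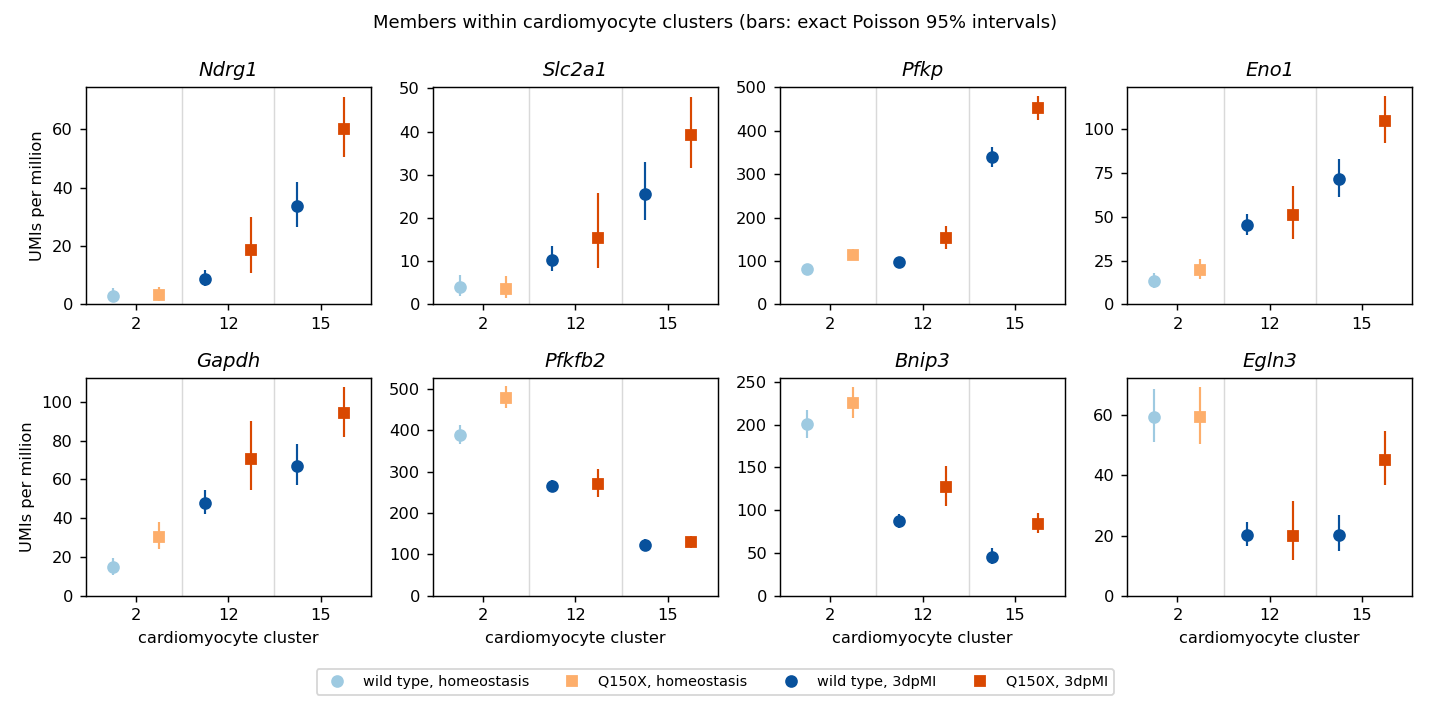
Levels of 8 members (CPM of the cluster sum, y axis) in cardiomyocyte clusters 2, 12 and 15 (x axis), each in the libraries that held at least 100 of its nuclei, with exact Poisson 95% intervals. Ndrg1, Slc2a1 and Pfkp are highest in cluster 15, Pfkfb2 and Bnip3 lowest there, and Egln3 in cluster 15 is higher in Q150X than in wild type.

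Fibroblasts of the infarct libraries also held more RNA of glycolytic genes, among them Eno1, Gapdh, Pkm, Pgam1, Slc2a1 and the lactate exporter Slc16a3. In wild type, 18 of 31 measured members were at least 1.5-fold higher and 1 lower, beside 36.4% and 9.03% of all genes. In Q150X, 16 of 32 were higher and 4 lower, beside 33.1% and 11.6%. In log2, the median ratio was 1.28 for glycolysis members and 0.06 for HIF members in wild type, and 0.71 and 0.22 in Q150X. The medians of all genes were 0.31 and 0.27.

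Eno1 was counted in fibroblasts at 6.18, 8.58, 45.3 and 55.8 CPM, 7.33-fold (3.67 to 17.1) in wild type and 6.51-fold (4.42 to 9.97) in Q150X. Slc16a3 was at 1.54, 4.13, 19.1 and 19.0 CPM, and its wild-type ratio of 12.3-fold (3.35 to 103) rests on 2 UMIs at homeostasis. Slc2a1 was at 4.63, 3.18, 21.2 and 28.2 CPM, 8.87-fold (4.75 to 18.7) in Q150X. These 3 genes were clear of both homeostasis libraries in both infarct libraries. Gapdh was at 12.4, 41.9, 62.7 and 69.7 CPM, 5.08-fold (3.09 to 8.96) in wild type but 1.66-fold in Q150X, whose homeostasis library already stood higher. Pkm was at 44.0, 52.1, 127 and 139.8 CPM, 2.88-fold (2.20 to 3.83) in wild type. Pgam1 was at 6.95, 4.13, 18.9 and 25.4 CPM, 6.15-fold (3.53 to 11.7) in Q150X. Hif1a was at 66.4, 60.7, 160.3 and 192 CPM, 3.17-fold (2.73 to 3.70) in Q150X. Of the lower ones, Ldhb was at 10.0, 26.0, 6.45 and 4.73 CPM, 0.642-fold (0.340 to 1.30) in wild type, an interval that spans no difference, and it lay on the other side of 1 within clusters 0 and 7. Its Q150X ratio was 0.182-fold (0.124 to 0.264).

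Fibroblasts at homeostasis and after infarction were largely different clusters as well. Clusters 0 and 7 held 1049 and 391 nuclei of wild-type homeostasis but 139 and 124 of wild-type 3dpMI. Clusters 3, led by Kif26b, Ltbp2 and Tnc, and 10 held 662 and 693 of the latter. Within cluster 0 alone, 1 of 8 measured members was at least 1.5-fold higher with infarction in wild type, beside 13.2% of all genes, with a median log2 ratio of 0.27. Within cluster 7 it was 0 of 4, beside 10.8%, with a median of 0.19. Few members reach 50 UMIs in those clusters. In fibroblasts macrophage markers summed to 153, 225, 248 and 433 CPM, neutrophil markers to 1.54, 17.5, 21.1 and 35.8 CPM and erythroid markers to 982, 774, 29.4 and 32.4 CPM, and their part in the ratios was not tested.

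Macrophages or monocytes could be compared with infarction in Q150X only. There 19 of 30 measured members were at least 1.5-fold higher and 2 lower, beside 35.4% and 16.8% of all genes. The median log2 ratio was 1.42 for glycolysis members and 0.21 for HIF members, beside 0.26 for all genes. In this class values follow the order Q150X homeostasis, wild type 3dpMI, Q150X 3dpMI. Pkm was counted at 45.5, 272 and 335 CPM, 7.37-fold (4.46 to 13.2) with infarction in Q150X. Eno1 was at 18.2, 82.8 and 114 CPM, 6.27-fold (2.86 to 17.1). Slc2a1 was at 12.1, 71.6 and 85.5 CPM, 7.05-fold (2.74 to 26.0), and Pgam1 at 9.09, 38.3 and 55.5 CPM, 6.11-fold (2.07 to 29.8). The homeostasis values of these 4 genes rest on 15, 6, 4 and 3 UMIs, and both infarct libraries were clear of them. The neuronal-type transporter Slc2a3 was at 42.4, 30.9 and 24.0 CPM, 0.566-fold (0.327 to 1.06), which spans no difference, and its log2 ratio within cluster 11 was 0.19. Ankrd37 was at 3.03, 10.9 and 13.4 CPM, and this HIF target was highest in endothelium of both infarct libraries, with intervals that met. Car9, the carbonic anhydrase known as a hypoxia marker of tumours, had 1, 8 and 31 UMIs. In Q150X macrophages neutrophil markers summed to 42.4 CPM at homeostasis and 232 CPM after infarction, and T or NK markers to 12.1 and 110.0 CPM. Their part in the ratios was not tested.

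The infarct macrophages were mostly of clusters with few or no nuclei at homeostasis. Clusters 5, led by Gpnmb and Lgals3, and 6, led by Ccr2, held 1041 and 903 nuclei of Q150X 3dpMI and 0 and 3 of Q150X homeostasis. Cluster 11, led by Cd163 and Mrc1, genes of resident macrophages, held 269 nuclei of Q150X 3dpMI and 354 of Q150X homeostasis. Within cluster 11, 5 of 15 measured members were at least 1.5-fold higher with infarction, near the 28.8% of all genes there. Pkm was at 45.9 CPM in cluster 11 at homeostasis and 215 CPM after infarction, against 339 and 383 CPM in clusters 5 and 6. Slc2a1 was at 38.3, 74.7 and 127 CPM in clusters 11, 5 and 6 of the same library. Both genes were highest in cluster 6 in Q150X. In the wild-type infarct library Slc2a1 had the same order, at 16.0, 72.7 and 156 CPM. Pkm there was at 178, 329.9 and 303 CPM, highest in cluster 5.

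In endothelium the infarct libraries again held more RNA of glycolytic genes and of Hif1a, and less of P4ha1. In wild type, 19 of 31 measured members were at least 1.5-fold higher and 1 lower, beside 33.7% and 7.15% of all genes. In Q150X, 12 of 27 were higher and 4 lower, beside 33.3% and 9.78%. As a median log2 ratio this was 1.06 for glycolysis members and 0.24 for HIF members in wild type, and 0.90 and -0.33 in Q150X. The median of all genes was 0.27 and 0.26.

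Eno1 was counted in endothelium at 3.64, 19.7, 44.2 and 70.8 CPM, and its wild-type ratio of 12.2-fold (3.32 to 101) rests on 2 UMIs at homeostasis, as does that of Pgk1, 7.09-fold (1.92 to 59.3). Pkm was at 47.3, 68.0, 146 and 197 CPM, 3.09-fold (2.09 to 4.77) in wild type and 2.89-fold (2.09 to 4.12) in Q150X. Aldoa was at 23.6, 78.7, 84.1 and 73.0 CPM, 3.56-fold (2.05 to 6.74) in wild type and 0.927-fold in Q150X, whose homeostasis library stood near the infarct libraries. Hif1a was 3.99-fold (2.95 to 5.52) in Q150X and 2.48-fold in wild type. Slc2a1 was at 5.45, 3.58, 15.9 and 30.3 CPM, 8.46-fold (2.29 to 70.7) in Q150X. Slc16a3 had 0 UMIs in both homeostasis libraries. Against a floor of 3 UMIs at homeostasis it was at least 3.52-fold higher in Q150X, and the lower bound of its counting interval was 2.79-fold. Within cluster 8, where homeostasis also held 0 UMIs, the same floor set its log2 ratio at -0.24. That value does not show a lower level after infarction. P4ha1 was at 215, 209, 122 and 111 CPM, 0.568-fold (0.464 to 0.699) and 0.528-fold (0.429 to 0.654). Both infarct libraries were clear of both homeostasis libraries. Bnip3 was at 63.6, 51.9, 45.1 and 25.7 CPM, 0.495-fold (0.323 to 0.778) in Q150X. Within endothelial cluster 1, Bnip3 was at 40.8 CPM at homeostasis and 46.1 CPM after infarction in Q150X, so the class difference was not seen there. Within that cluster, 12 of 20 measured members were at least 1.5-fold higher with infarction in wild type and 7 of 13 in Q150X, beside 21.5% and 18% of all genes.

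**Figure D4:**
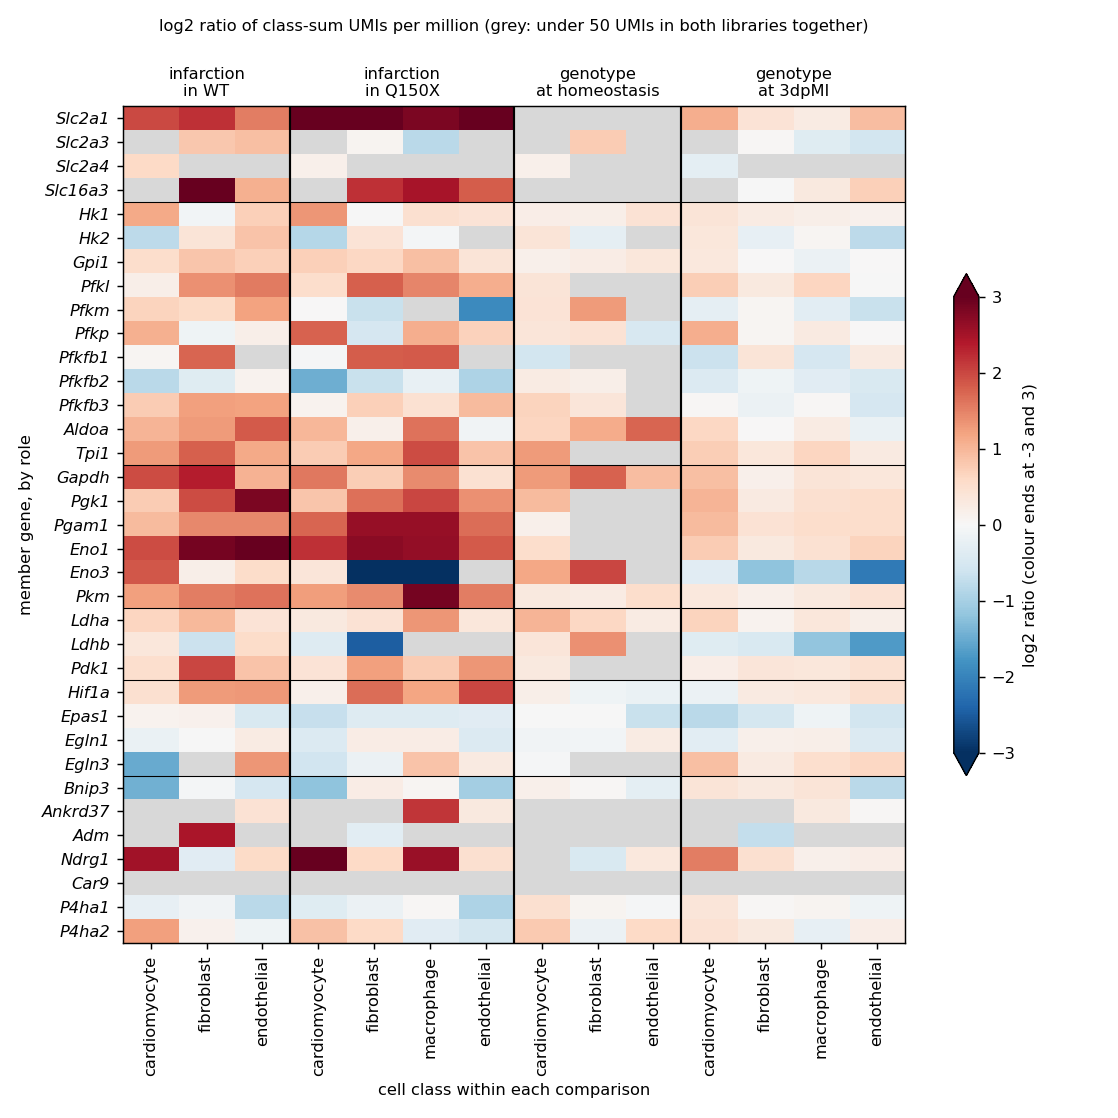
Log2 ratio of CPM for each of the 35 members (rows, by role) in each class (columns) of the 4 comparisons: 3dpMI over homeostasis in each genotype, and Q150X over wild type at each time. Red is higher, blue lower, and grey marks fewer than 50 UMIs over both libraries. Slc2a1 and Eno1 are red in every infarct column, and Eno3 is blue in all 3 non-cardiomyocyte columns of genotype at 3dpMI.

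The genotypes were compared at homeostasis in 3 classes. In cardiomyocytes, 8 of 28 measured members were at least 1.5-fold higher in Q150X and 0 lower, beside 11.8% and 2.16% of all genes. The higher ones were Pfkfb3, Aldoa, Tpi1, Gapdh, Pgk1, Eno3, Ldha and P4ha2, of which 7 are glycolysis members. Pfkfb3 rests on 32 against 21 UMIs, and its level intervals met between the genotypes. The median log2 ratio of the 21 glycolysis members was 0.39, that of HIF members 0.15 and that of all genes 0.16. From the levels above, Gapdh was 2.41-fold (1.68 to 3.5), Eno3 2.25-fold (1.66 to 3.09) and Ldha 2.02-fold (1.53 to 2.69) of wild type. Tpi1, counted at 8.33, 20.1, 20.3 and 34.0 CPM, was 2.41-fold (1.5 to 3.97). Ndrg1 and Slc2a1, the genes with the largest infarct ratios, had 9 and 9 UMIs in Q150X against 9 and 12 in wild type. Within cluster 2, which held most of both libraries' cardiomyocytes, Gapdh was at 14.7 and 30.4 CPM and Ldha at 23.6 and 51.3 CPM. The median nucleus held 1511.5 UMIs in wild type and 3025 in Q150X. The part of this depth in the ratios was not tested.

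In fibroblasts at homeostasis, 7 of 21 measured members were at least 1.5-fold higher in Q150X and 0 lower, beside 10.3% and 2.44% of all genes. The higher ones were Slc2a3, Pfkm, Aldoa, Gapdh, Eno3, Ldha and Ldhb, though the level intervals of Slc2a3 and Ldha met between the genotypes. Gapdh was 3.39-fold (2.01 to 6.11) of wild type, Eno3 4.02-fold (2.03 to 9.09), Ldhb 2.59-fold (1.44 to 5.08) and Aldoa 2.18-fold (1.40 to 3.52). Within cluster 0, which held most of the fibroblasts of both homeostasis libraries, 5 of 20 were higher, beside 10.6% of all genes, and within cluster 7 it was 0 of 10, beside 6.84%. Aldoa was counted at 18.5, 40.3, 45.1 and 45.1 CPM, lowest in wild-type homeostasis. In endothelium 3 of 14 measured members were higher and 1 lower, beside 11.2% and 5.98%. Aldoa was 3.33-fold (1.76 to 6.74), Gapdh 1.90-fold (1.18 to 3.11) and P4ha2 1.51-fold (0.958 to 2.39), the last with an interval that spans no difference. Gapdh was counted at 50.9, 96.6, 105 and 132 CPM and P4ha2 at 61.8, 93.0, 56.2 and 64.0 CPM. Epas1 was the lower one, 0.631-fold (0.563 to 0.708). Within endothelial cluster 1 it was at 1388 CPM in wild type and 913 CPM in Q150X. Erythroid markers in endothelium summed to 1000.01, 8724, 85.9 and 92.4 CPM, high in the Q150X homeostasis library, and cardiomyocyte markers to 3558, 8776, 4723 and 1082 CPM. Macrophage markers there summed to 331, 401, 624 and 889.6 CPM, higher in the infarct libraries. The part of the erythroid and macrophage markers in the ratios of either kind was not tested. For free cardiomyocyte RNA, an estimate from the cardiomyocyte markers was taken off as an alternative. The count of lower members in endothelium then went from 1 to 4 for genotype at homeostasis and from 4 to 2 for Q150X infarction. For genotype at 3dpMI, higher members went from 4 to 8 and lower ones from 5 to 3.

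After infarction the count of members past 1.5-fold between genotypes was highest in cardiomyocytes. There 12 of 30 measured members were at least 1.5-fold higher in Q150X and 2 lower, beside 11.7% and 8.6% of all genes. The higher ones were Slc2a1, 9 enzymes (Pfkl, Pfkp, Aldoa, Tpi1, Gapdh, Pgk1, Pgam1, Eno1 and Ldha), Egln3 and Ndrg1. The median log2 ratio was 0.36 for glycolysis members, 0.37 for HIF members and 0.06 for all genes. From the levels above, Ndrg1 was 2.91-fold (2.29 to 3.71) of wild type, Pfkp 2.12-fold (1.96 to 2.29), Slc2a1 2.15-fold (1.63 to 2.82) and Gapdh 1.86-fold (1.6 to 2.14). Epas1 was 0.571-fold (0.477 to 0.680). Pfkfb1, the liver form of the enzyme of fructose 2,6-bisphosphate, was at 42.6, 29.1, 44.6 and 28.6 CPM and 0.641-fold (0.505 to 0.808).

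The clusters were also compared one by one. Cluster 15, where Ndrg1, Slc2a1 and Pfkp were highest, made up 31.8% of wild-type and 59.9% of Q150X cardiomyocytes after infarction. Within cluster 12, 3 of 30 measured members were at least 1.5-fold higher in Q150X and 0 lower, beside 7.53% and 7.67% of all genes, and the median log2 ratio was 0.16. Within cluster 15, 10 of 30 were higher and 1 lower, beside 6.18% and 5.19%, with a median of 0.35. The log2 ratio of Ndrg1 was 1.10 and 0.84 within the 2 clusters, and that of Pfkp 0.63 and 0.42. Egln3 in cluster 15 was at 20.2 (14.9 to 26.7) CPM in wild type and 45.2 (36.9 to 54.7) CPM in Q150X. Epas1 had log2 ratios of -0.43 and -0.43. Pfkfb1 changed side, from 59.2 against 41.9 CPM in cluster 12 to 11.8 against 24.1 CPM in cluster 15. Cluster 27, larger in Q150X, held under 100 nuclei and was not compared. In Q150X 3dpMI the class levels of Gapdh, Aldoa and Ldha were 104, 75.4 and 61.7 CPM. These lay above the levels of cluster 12 (70.5, 59.5 and 49.6 CPM) and of cluster 15 (94.2, 66.2 and 59.4 CPM). The other higher members lay between the 2 clusters. The part of cluster 27 in the class ratios was not tested.

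Outside cardiomyocytes fewer members were at least 1.5-fold higher in Q150X. In fibroblasts 0 of 32 measured members were at least 1.5-fold higher in Q150X and 2 lower, beside 5.23% and 4.18% of all genes. The lower ones were Eno3, 0.431-fold (0.271 to 0.675), and Adm, the vasodilator peptide adrenomedullin, 0.608-fold (0.409 to 0.902). Adm was at 1.54, 6.35, 8.45 and 5.14 CPM. In macrophages 2 of 32 were higher and 2 lower, beside 4.85% and 5.65%. Tpi1 was at 15.2, 37.7 and 58.9 CPM, 1.56-fold (1.26 to 1.95), and Pfkl, the liver form of phosphofructokinase, at 21.2, 37.7 and 58.6 CPM, 1.56-fold (1.25 to 1.94). Both homeostasis levels rest on under 10 UMIs. The lower ones were Ldhb, 0.442-fold (0.264 to 0.737), and Eno3, 0.558-fold (0.352 to 0.888). In endothelium 4 of 32 were higher and 5 lower, beside 8.42% and 4.7%. Slc2a1 was 1.90-fold (1.40 to 2.61), Eno1 1.6-fold (1.32 to 1.94), Slc16a3 1.64-fold (1.13 to 2.41) and Egln3 1.54-fold (1.14 to 2.10), the last counted at 7.27, 23.3, 18.2 and 28.1 CPM. Slc16a3 and Egln3 lay on the other side of 1 within clusters 8 and 16, and Tpi1 in macrophages did so within cluster 6. The named lower ones were Eno3, 0.230-fold (0.130 to 0.383), Ldhb, 0.306-fold (0.171 to 0.520), Bnip3, 0.569-fold (0.440 to 0.730), and Hk2, 0.576-fold (0.353 to 0.921). Bnip3 lay on the other side of 1 within cluster 9, as did Hk2 within cluster 16 and with the free-RNA estimate described next taken off.

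Several members that were highest in cardiomyocytes of the infarct libraries rose and fell with the cardiomyocyte markers in some of the other classes. The level that free cardiomyocyte RNA would bring was estimated from the 15 markers, which stood in fibroblasts at 3.63%, 5.85%, 2.35% and 0.791% of their cardiomyocyte level. In endothelium the shares were 4.15%, 11.3%, 6.53% and 1.6%, and in macrophages of the last 3 libraries 9.29%, 3.71% and 1.37%. Eno3 was counted in fibroblasts at 6.95, 28.0, 7.88 and 3.39 CPM, against estimates of 0.733, 2.66, 1.73 and 0.459 CPM. Both series were highest in the Q150X homeostasis library and lowest in the Q150X infarct library. Ldhb in endothelium was at 10.9, 35.8, 15.9 and 4.86 CPM, against 4.61, 16.2, 9.21 and 1.75 CPM. Pfkm in endothelium was at 7.27, 39.4, 16.8 and 10.5 CPM, against 3.34, 12.1, 8.42 and 1.72 CPM, and 0.268-fold (0.155 to 0.474) with infarction in Q150X. The observed levels of these genes were mostly above the estimates. Pfkfb2 in endothelium was at 21.8, 32.2, 23.5 and 17.0 CPM, against 16.0, 51.9, 14.4 and 2.67 CPM, so that in Q150X homeostasis the estimate exceeded the count. With the estimate taken off, the Pfkfb2 infarct ratio in Q150X turned from 0.529-fold (0.309 to 0.949) to a log2 ratio of 1.42 in endothelium, and from 0.632-fold (0.496 to 0.808) to 1.67 in fibroblasts. The endothelial value of 1.42 is set by the floor of 3 UMIs, which stood in because nothing was left at homeostasis, and is not a measured ratio. Eno3 in macrophages, at 63.6, 12.6 and 7.0 CPM against estimates of 4.22, 2.73 and 0.796 CPM, was 0.110-fold (0.0640 to 0.195) with infarction in Q150X. Its homeostasis level there rests on 21 UMIs. The interval of 39.4 to 97.3 CPM meets that of cardiomyocytes of the same library, which held 45.5 CPM. Pfkm in fibroblasts, at 9.27, 22.6, 13.8 and 14.3 CPM, was 0.633-fold (0.473 to 0.855). Its estimates were 2.92, 6.25, 3.03 and 0.851 CPM, so between the infarct libraries the estimate fell and the count did not. Eno1 and Gapdh stood above their estimates in every class, as in macrophages of Q150X 3dpMI, where Gapdh was at 162 CPM and its estimate at 1.42 CPM.

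**Figure D5:**
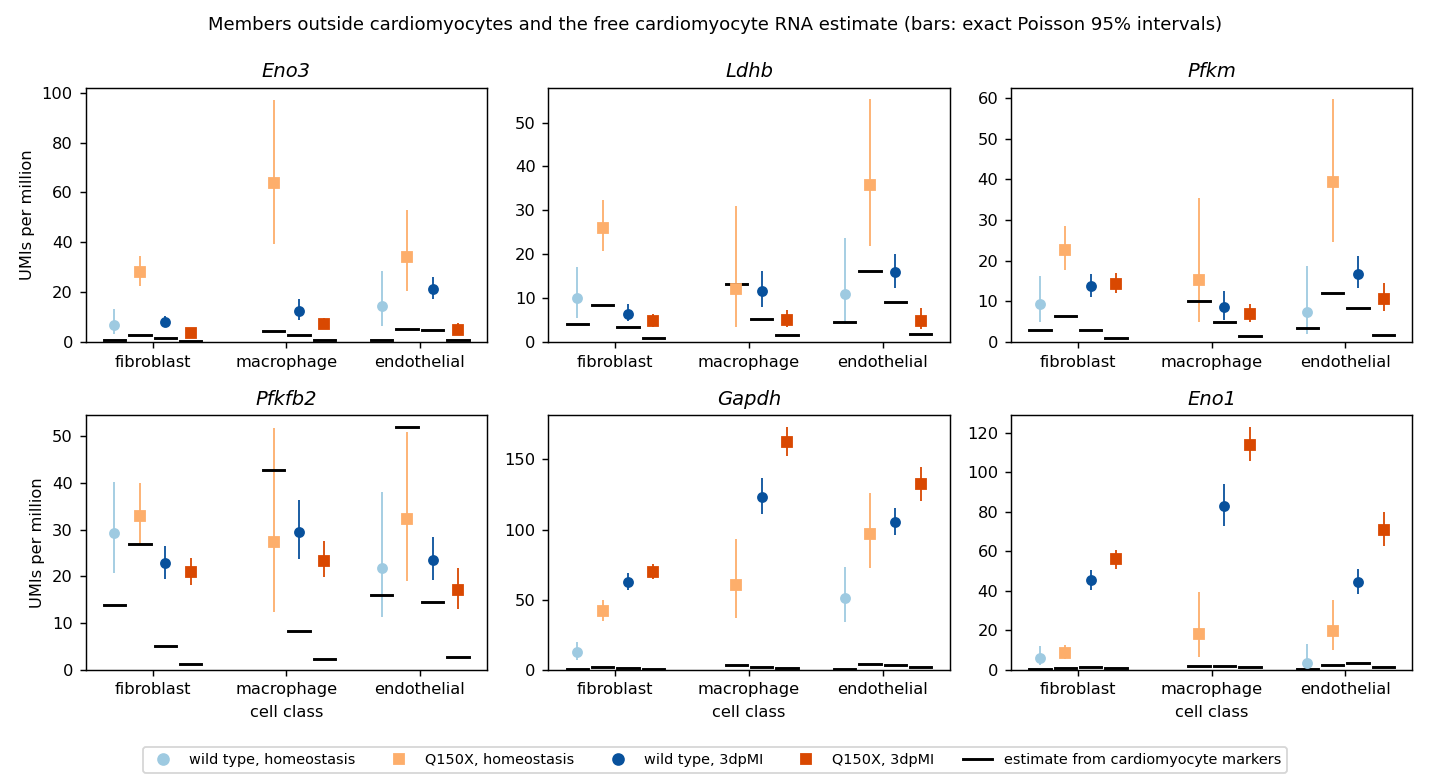
Levels of 6 members (CPM, y axis) in fibroblasts, macrophages and endothelium (x axis) by library, with exact Poisson 95% intervals, and the level that free cardiomyocyte RNA would bring (black lines). Eno3, Ldhb and Pfkm are highest in Q150X homeostasis in fibroblasts and endothelium, where the estimates are highest too. These genes lie mostly above their estimates, and Gapdh and Eno1 lie above theirs in every class drawn.

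Other genes of the pathway, 32 of glycolysis and pyruvate use and 38 of the hypoxia response, were listed by function and all found. In cardiomyocytes, 3 of 17 measured genes of the first list were at least 1.5-fold higher with infarction in wild type and 0 lower, beside 35.4% and 4.93% of all genes. In Q150X 2 of 16 were higher and 7 lower, beside 28.3% and 11.3%. The lower ones included Pdk4, which holds pyruvate dehydrogenase inactive in fasting and fatty acid use, at 198 against 113 CPM. Of the hypoxia list, 11 of 28 were higher and 1 lower in wild type, and 11 of 26 and 0 in Q150X. Lox, which cross-links collagen, had 0 UMIs in cardiomyocytes of both homeostasis libraries. Against a floor of 3 UMIs there, it was at least 10.8-fold and at least 18.5-fold higher after infarction. Fibroblast markers summed to 1456, 1571, 1743 and 1753 CPM in cardiomyocytes, and their part in the Lox counts was not tested. Hmox1, haem oxygenase, was at 0.320 against 7.91 CPM in wild type, on 1 UMI at homeostasis. Macrophage markers in cardiomyocytes were also higher in the infarct library, and their part in this was not tested.

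In fibroblasts, 5 of 13 other glycolysis genes were higher with infarction in wild type and 0 lower, and 2 of 17 and 6 in Q150X. Of the other hypoxia genes, 13 of 32 were higher and 3 lower in wild type, and 11 of 33 and 4 in Q150X. The shares of all genes were 36.4% higher and 9.03% lower in wild type and 33.1% and 11.6% in Q150X. Lox was 20.4-fold (10.3 to 47.4) in wild type, and Stc2, a secreted stanniocalcin, 0.462-fold (0.318 to 0.680) and 0.198-fold (0.148 to 0.264) in the 2 genotypes. In macrophages of Q150X, 1 of 12 and 7 of 26 were higher and 6 and 3 lower in the 2 lists, beside 35.4% and 16.8% of all genes. Hmox1 led there, at 21.2 against 378 CPM, 17.8-fold (8.63 to 44.4). In endothelium, 12 of 27 hypoxia genes were higher and 4 lower in wild type, and 12 of 27 and 3 in Q150X. Of the glycolysis list it was 2 of 9 and 0, and 1 of 7 and 3. All genes gave 33.7% and 7.15% in wild type and 33.3% and 9.78% in Q150X. Mxi1, a MYC antagonist, was 0.462-fold (0.371 to 0.579) in wild type.

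Between genotypes at homeostasis, 4 of 14 other glycolysis genes and 4 of 23 other hypoxia genes were higher in Q150X cardiomyocytes and 0 lower, beside 11.8% and 2.16% of all genes. They included Pgam2, the phosphoglycerate mutase of muscle, at 12.2 against 29.4 CPM, 2.42-fold (1.63 to 3.63). In fibroblasts these counts were 4 of 8 and 3 of 24, with 0 lower, beside 10.3% and 2.44%. In endothelium 1 of 3 and 1 of 10 were higher, with 1 and 1 lower, beside 11.2% and 5.98%. After infarction 0 of 17 and 5 of 29 were higher in Q150X cardiomyocytes, and 2 and 1 lower, beside 11.7% and 8.6%. The pyruvate transporter Slc16a7 was at 23.2 against 9.12 CPM, 0.393-fold (0.258 to 0.581). In fibroblasts the higher counts were 2 of 18 and 1 of 35 and the lower ones 0 and 2, beside 5.23% and 4.18%. Pgf, a ligand related to VEGF-A, was at 23.9 against 9.04 CPM, 0.378-fold (0.289 to 0.492). In macrophages 0 of 16 and 1 of 28 were higher, with 1 and 1 lower, beside 4.85% and 5.65%. Endothelium gave 0 of 12 and 2 of 29 higher, with 2 and 0 lower, beside 8.42% and 4.7%. Hmox1 was 2.11-fold (1.44 to 3.10) in cardiomyocytes, 2.09-fold (1.65 to 2.67) in fibroblasts and 2.48-fold (1.88 to 3.30) in endothelium of the infarct libraries. It is also a leading gene of macrophage cluster 5. Macrophage markers in those classes were likewise higher in the Q150X infarct library than in the wild-type one. Their part in the Hmox1 ratios was not tested.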

How the data were processed

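Whole-heart nuclei were profiled in 4 libraries with a 10x Genomics 5′ kit, per the labels' protocols. The deposited values are raw UMI counts per gene and barcode. Per the file headers, Cell Ranger 7.1.0 made them. Build GRCm39 and Scanpy are named in the submitters' processing notes, the latter without a role; intron counting and barcode filtering are not given in the sources used here. From these counts, nuclei with at least 500 UMIs, 300 genes and at most 10% mitochondrial UMIs were kept. Doublets were removed with Scrublet (183, 1045 and 802); in Q150X homeostasis it marked 0.0154%, so the 336 nuclei with the highest scores, at an expected 0.8% per 1000 nuclei, were removed instead. Nuclei were clustered with Scanpy 1.11.5 (2000 variable genes, scaled and clipped at 10, 30 components, 15 neighbours, Leiden resolution 1) and named by marker lists of 17 classes. The scaling of genes and the naming rule were settled after clusters were seen, from marker genes and not from the members' values. In each class UMIs were summed by library and divided by the class total. Depth is 5543594, 8393926, 25162405 and 26805000 UMIs kept in the order of the report. Ratios with intervals were tested on simulated Poisson counts. These hold no spread between nuclei, hearts or libraries, so the test covers counting error only. No adjusted p was possible with 1 library per group. In each comparison of classes with at least 100 nuclei, up to 4 measured members at each end past 1.5-fold, ranked by the interval bound nearest to 1, are named, and up to 2 genes of the other pathway lists. Some genes this rule names are not reported here. The members and lists were chosen with earlier results of these data known. Alternatives were the scaling, the UMI minimum, doublets, the weight of nuclei, clusters, resolution, free cardiomyocyte RNA, the low-count filter and the fold.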

Additional observations from a re-analysis of the deposited data

Results flagged for a closer look

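For 6 results the Q150X over wild-type ratio lay above 1 at homeostasis and below 1 after infarction, with both intervals clear of 1. The difference was not tested, since each group held 1 library. In cardiomyocytes the genotype ratio of Eno3 went from 2.25 at homeostasis to 0.789 at 3dpMI, a ratio of ratios of 0.350. That of Pfkm went from 1.33 to 0.835, a ratio of ratios of 0.628, and that of Pfkfb2 from 1.2 to 0.756, or 0.633. Ldhb went from 1.29 to 0.776, or 0.602, and Hif1a from 1.12 to 0.891, or 0.795. Eno3, Pfkm, Pfkfb2 and Ldhb were at least 1.5-fold lower in cardiomyocyte cluster 15 than in cluster 12 in both infarct libraries. Cluster 15 held 31.8% of wild-type and 59.9% of Q150X cardiomyocytes. Within each cluster the intervals of these genes met between the infarct libraries. In wild type and Q150X, Eno3 was at 85.1 and 95.9 CPM in cluster 12 and 48.7 and 42.2 in cluster 15. Pfkfb2 was at 264 and 270 CPM, then 123 and 129. Ldhb was at 171 and 187 CPM, then 76.4 and 75.3, and Pfkm at 145 and 163, then 91.1 and 84.7. Hif1a intervals met in cluster 12 but not in cluster 15, where it was at 303 and 254 CPM. In fibroblasts Eno3 went from 4.02 to 0.431, a ratio of ratios of 0.107. Cardiomyocyte markers there stood at 3.63% and 5.85% of their cardiomyocyte level at homeostasis and at 2.35% and 0.791% after infarction, in wild type and Q150X. Eno3 was counted there at 6.95, 28.0, 7.88 and 3.39 CPM, against free cardiomyocyte RNA estimates of 0.733, 2.66, 1.73 and 0.459 CPM. With that estimate taken off, neither genotype ratio of Eno3 in fibroblasts changed side. Beyond this, the part of the cluster and marker shares in the results was not tested.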

How the results depend on the processing

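The processing was varied 1 choice at a time. Of the log2 ratios of named members under the alternatives, 646 stayed in their counting interval, 45 left it without changing side and 17 changed side. Of the counts of members at least 1.5-fold higher, 97 stayed within 1.5 times and 29 did not. Of the counts lower, which were small, 71 did and 55 did not. Of the medians, 122 stayed between the median lower and upper bounds of the members and 4 did not. In the following, the comparison stands in brackets, and the cause of a change was not tested, except that fewer nuclei and fewer measured members enter within a cluster and fewer genes can pass a 2-fold mark. Relative to the median of all genes, the count of lower members went from 1 to 3 in fibroblasts and from 1 to 3 in endothelium (wild-type infarction), from 2 to 4 in macrophages and from 4 to 7 in endothelium (Q150X infarction), from 0 to 1 in cardiomyocytes (genotype at homeostasis), from 5 to 8 in endothelium (genotype at 3dpMI). Medians in log2 went from 0.66 to 0.28 in cardiomyocytes (wild-type infarction). With 2-fold in place of 1.5-fold, the count of higher members went from 17 to 11 in cardiomyocytes (wild-type infarction), from 13 to 8 in cardiomyocytes (Q150X infarction), from 8 to 4 in cardiomyocytes and from 3 to 1 in endothelium (genotype at homeostasis), from 12 to 4 in cardiomyocytes, from 2 to 0 in macrophages and from 4 to 0 in endothelium (genotype at 3dpMI). Lower members went from 4 to 2 in cardiomyocytes, from 1 to 0 in fibroblasts and from 1 to 0 in endothelium (wild-type infarction), from 4 to 2 in cardiomyocytes, from 4 to 2 in fibroblasts, from 2 to 1 in macrophages and from 4 to 2 in endothelium (Q150X infarction), from 1 to 0 in endothelium (genotype at homeostasis), from 2 to 0 in cardiomyocytes, from 2 to 1 in fibroblasts, from 2 to 1 in macrophages and from 5 to 2 in endothelium (genotype at 3dpMI). With at least 1000 UMIs per nucleus, the count of lower members went from 1 to 2 in fibroblasts and from 1 to 3 in endothelium (wild-type infarction), from 0 to 1 in fibroblasts (genotype at homeostasis). Named members moved in log2 from -0.64 to 0.26 for Ldhb in fibroblasts (wild-type infarction). Without doublet removal, the count of higher members went from 0 to 1 in fibroblasts (genotype at 3dpMI). Counts of lower members moved from 1 to 0 in fibroblasts (wild-type infarction), from 2 to 4 in macrophages (Q150X infarction), from 2 to 1 in cardiomyocytes (genotype at 3dpMI). At clustering resolution 2, the count of lower members went from 1 to 0 in fibroblasts (wild-type infarction), from 2 to 4 in macrophages (Q150X infarction). With nuclei weighted equally, the count of higher members went from 0 to 2 in fibroblasts (genotype at 3dpMI). For lower members the count moved from 1 to 0 in fibroblasts (wild-type infarction), from 0 to 1 in cardiomyocytes and from 1 to 0 in endothelium (genotype at homeostasis). Without the filter on low counts, the count of higher members went from 7 to 13 in fibroblasts and from 3 to 10 in endothelium (genotype at homeostasis), from 0 to 1 in fibroblasts and from 2 to 4 in macrophages (genotype at 3dpMI). The count of lower members went from 1 to 2 in fibroblasts and from 1 to 2 in endothelium (wild-type infarction), from 2 to 6 in macrophages and from 4 to 9 in endothelium (Q150X infarction), from 0 to 1 in fibroblasts and from 1 to 3 in endothelium (genotype at homeostasis). Within cluster 0, the count of higher members went from 18 to 1 in fibroblasts (wild-type infarction). The median log2 ratio moved from 0.97 to 0.27 in fibroblasts (wild-type infarction). In log2, ratios went from -0.64 to 0.42 for Ldhb in fibroblasts (wild-type infarction). Within cluster 7, the count of higher members went from 18 to 0 in fibroblasts (wild-type infarction), from 7 to 0 in fibroblasts (genotype at homeostasis). Lower members went from 1 to 0 in fibroblasts (wild-type infarction). Medians in log2 went from 0.97 to 0.19 in fibroblasts (wild-type infarction). Single log2 ratios went from -0.64 to 0.34 for Ldhb in fibroblasts (wild-type infarction). Within cluster 1, the count of higher members went from 19 to 12 in endothelium (wild-type infarction), from 12 to 7 in endothelium (Q150X infarction), from 4 to 1 in endothelium (genotype at 3dpMI). Counts of lower members moved from 4 to 1 in endothelium (Q150X infarction), from 5 to 1 in endothelium (genotype at 3dpMI). Named members moved in log2 from -1.02 to 0.18 for Bnip3 in endothelium (Q150X infarction). With free cardiomyocyte RNA taken off, the count of higher members went from 4 to 8 in endothelium (genotype at 3dpMI). For lower members the count moved from 4 to 2 in fibroblasts and from 4 to 2 in endothelium (Q150X infarction), from 0 to 3 in fibroblasts and from 1 to 4 in endothelium (genotype at homeostasis), from 5 to 3 in endothelium (genotype at 3dpMI). In log2, ratios went from -0.66 to 1.67 for Pfkfb2 in fibroblasts and from -0.92 to 1.42 for Pfkfb2 in endothelium (Q150X infarction), from -0.79 to 0.14 for Hk2 in endothelium (genotype at 3dpMI). The endothelial Pfkfb2 value of 1.42 is set by the floor of 3 UMIs at homeostasis. Within cluster 11, the count of higher members went from 19 to 5 in macrophages (Q150X infarction), from 2 to 1 in macrophages (genotype at 3dpMI). The count of lower members went from 2 to 1 in macrophages (Q150X infarction), from 2 to 0 in macrophages (genotype at 3dpMI). Single log2 ratios went from -0.82 to 0.19 for Slc2a3 in macrophages (Q150X infarction). Within cluster 8, the count of higher members went from 12 to 6 in endothelium (Q150X infarction). Lower members went from 5 to 2 in endothelium (genotype at 3dpMI). Named members moved in log2 from 1.82 to -0.24 for Slc16a3 in endothelium (Q150X infarction), from 0.63 to -0.13 for Egln3 in endothelium and from 0.72 to -0.011 for Slc16a3 in endothelium (genotype at 3dpMI). Both Slc16a3 values of Q150X infarction are set by the floor of 3 UMIs, since homeostasis held 0 UMIs, so this is not a measured change of side. Within cluster 2, the count of lower members went from 0 to 1 in cardiomyocytes (genotype at homeostasis). Within cluster 12, the count of higher members went from 12 to 3 in cardiomyocytes (genotype at 3dpMI). Counts of lower members moved from 2 to 0 in cardiomyocytes (genotype at 3dpMI). The median log2 ratio moved from 0.37 to 0.16 in cardiomyocytes (genotype at 3dpMI). Within cluster 15, the count of lower members went from 2 to 1 in cardiomyocytes (genotype at 3dpMI). In log2, ratios went from -0.64 to 1.03 for Pfkfb1 in cardiomyocytes (genotype at 3dpMI). Within cluster 3, the count of higher members went from 0 to 1 in fibroblasts (genotype at 3dpMI). For lower members the count moved from 2 to 1 in fibroblasts (genotype at 3dpMI). Within cluster 10, the count of higher members went from 0 to 3 in fibroblasts (genotype at 3dpMI). The count of lower members went from 2 to 0 in fibroblasts (genotype at 3dpMI). Within cluster 5, the count of lower members went from 2 to 0 in macrophages (genotype at 3dpMI). Within cluster 6, the count of higher members went from 2 to 0 in macrophages (genotype at 3dpMI). Lower members went from 2 to 1 in macrophages (genotype at 3dpMI). Single log2 ratios went from 0.65 to -0.19 for Tpi1 in macrophages (genotype at 3dpMI). Within cluster 9, the count of higher members went from 4 to 2 in endothelium (genotype at 3dpMI). Counts of lower members moved from 5 to 1 in endothelium (genotype at 3dpMI). Named members moved in log2 from -0.81 to 0.20 for Bnip3 in endothelium (genotype at 3dpMI). Within cluster 16, the count of higher members went from 4 to 1 in endothelium (genotype at 3dpMI). For lower members the count moved from 5 to 1 in endothelium (genotype at 3dpMI). In log2, ratios went from 0.63 to -0.33 for Egln3 in endothelium, from 0.72 to -0.16 for Slc16a3 in endothelium and from -0.79 to 0.25 for Hk2 in endothelium (genotype at 3dpMI). A minimum of 1000 UMIs could not be run for Q150X infarction in macrophages and endothelium or for genotype at homeostasis in endothelium, where 98, 94 and 94 nuclei were left in the smaller library. No paired analysis was possible because each group held 1 library. Depth limits the homeostasis values most: the infarct ratios of Slc2a1, Eno1, Pgam1 and Slc16a3 outside cardiomyocytes rest on few UMIs there.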

Other observations

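Some members were also counted in immune classes outside the comparisons. Neutrophils, 104 nuclei of the Q150X infarct library, held Slc2a1 at 291 CPM (195 to 418) from 29 UMIs, Eno1 at 201 CPM (123 to 310) from 20 UMIs and Pkm at 281 CPM (187 to 406) from 28 UMIs. Macrophages of the same library held Slc2a1 at 85.5 CPM (78.4 to 93.0), Eno1 at 114 CPM (106 to 123) and Pkm at 335 CPM (321 to 349). Neutrophils were thus higher in Slc2a1 but not in Pkm. Dendritic cells of that library, 201 nuclei, held Slc2a1 at 101 CPM (76.8 to 131) and Pfkfb3 at 211 CPM (175 to 252). Macrophages held Pfkfb3 at 196 CPM (185 to 207), and both dendritic intervals met those of macrophages. Pericytes were counted in every library. Their Hif1a level was 60.2, 69.4, 143 and 173 CPM and their Pkm level 55.5, 76.6, 137 and 183 CPM, in both genes higher in the infarct libraries. Eno1 in pericytes was at 23.1, 5.78, 29.0 and 53.9 CPM, where the first value rests on 5 UMIs and its interval of 7.51 to 54.0 CPM meets that of both infarct libraries.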
